A study of Mus musculus with 16 samples.

Results

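The clustered protocadherin genes are a family of 57 protein-coding genes on mouse chromosome 18, taken here as every protein-coding gene of the RefSeq table whose symbol begins with Pcdha, Pcdhb or Pcdhg and goes on with a family number or letter. They are 57 of 21900 protein-coding genes in the table, or 0.2603%, and 57 of the 511 on chromosome 18. The family falls into 14 Pcdha, 22 Pcdhb and 21 Pcdhg genes. Chromatin immunoprecipitation followed by sequencing (ChIP-seq) was available as lists of called peaks for 3 histone marks in mouse embryonic stem cells of the C57BL/6 strain. For each mark there were 2 libraries of Mettl14 knockout cells, whose titles read CKO, and 2 libraries of Mettl14 control cells, 12 lists in all. METTL14 forms, with METTL3, the enzyme complex that places N6-methyladenosine on RNA, and the study asked how histone marks change when it is lost. All groups were grown in medium with serum, the cytokine LIF and the inhibitors CHIR99021 and PD0325901. The labels do not say how the deletion was brought about or whether the replicates were separate cultures, so a p-value here measures the spread between libraries, which may be technical.

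Clustered protocadherins are cadherin-like proteins of the neuronal surface. Each neuron uses its own small set of them, chosen by switching on individual promoters, and cells that carry matching sets recognise each other as self. In the Pcdha and Pcdhg clusters each gene is a variable first exon that is spliced to constant exons shared by the whole cluster, whereas a Pcdhb gene has its own single coding exon. Promoter choice is known to involve the insulator protein CTCF, cohesin and DNA methylation. The last genes of the Pcdha and Pcdhg clusters, called C-type (Pcdhac1, Pcdhac2, Pcdhgc3, Pcdhgc4 and Pcdhgc5), are used more uniformly by neurons than the alternate genes before them. Trimethylation of histone H3 at lysine 27 (H3K27me3) is placed by Polycomb repressive complexes on silent developmental genes, trimethylation at lysine 4 (H3K4me3) marks promoters, and acetylation at lysine 27 (H3K27ac) marks active promoters and enhancers.

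In mm10 coordinates the Pcdha cluster ran from chr18:36930285-37188897 (258.6 kb), the Pcdhb cluster from chr18:37264998-37521419 (256.4 kb) and the Pcdhg cluster from chr18:37661775-37841873 (180.1 kb). Together the 3 clusters cover 695.1 kb, 0.7947% of the stretch of chromosome 18 that holds its genes. A member's start was taken as the lower-coordinate end of its annotated span, since all Pcdha members and all Pcdhg members share the other end, where the constant exons lie. The family holds 5 C-type and 52 alternate genes. Because the spans nest, 1 peak near the end of a cluster lies in the span of many members, and calls over whole spans are therefore given apart from calls at starts.

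The lists themselves differed in length. The knockout lists held 8131 and 8055 H3K4me3 peaks, against 2859 and 2431 in the control lists. For H3K27me3 there were 11349 and 11446 knockout peaks, against 6312 and 7203 control peaks, and for H3K27ac 15271 and 15058 knockout peaks, against 15541 and 13520 control peaks. No list gives read numbers or peak heights, so the depth behind a call is unknown. Values from lists cut to equal length are given for the main H3K27me3 counts below. At the ends of Mettl14, the deleted gene, the widest H3K4me3 peak was 1074 and 1295 bp in the knockout lists, with no peak in either control list. A mark at a gene end does not show whether the gene was deleted, so the labels were not checked by it. In the labels of the H3K27ac libraries the antibody given is that against H3K4me3; their mark was taken from the titles. As a check of cell type, H3K27ac peaks were sought within 1 kb of gene ends. They lay at 7 of 12 naive pluripotency genes in all 4 lists, where 6.91% of all protein-coding genes had them. Among the 7 were Pou5f1, Sox2 and Nanog. Zfp42 had H3K27ac in both knockout lists alone. Klf5 had it in knockout replicate 2, Esrrb in control replicate 1, Tfcp2l1 in 1 list of each condition and Dppa3 in none. H3K27me3 lay at Esrrb in both knockout lists alone, and at Dppa3 in both knockout lists and control replicate 2. H3K27ac lay at 0 of 10 neural genes in any list, where 34.5% of all protein-coding genes had a peak in 1 list or more. Of 8 fibroblast markers, H3K27ac lay at 1, Pdgfrb, with a peak of 501 bp in knockout replicate 2 alone. Of 6 primitive endoderm markers, it lay at 1, Gata6, with a peak of 501 bp in control replicate 1 alone.

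H3K27me3 was the mark most often called over the clustered protocadherin genes in these cells. Over the 3 clusters the knockout lists held 34 and 44 H3K27me3 peaks, against 26 and 31 in the control lists. H3K27ac gave 4 and 3 knockout peaks against 2 and 3 control peaks. H3K4me3 gave 0 and 1 knockout peaks against 1 and 0 control peaks. In all, 149 of the 117176 peaks of the 12 lists touched the clusters.

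**Figure D1:**
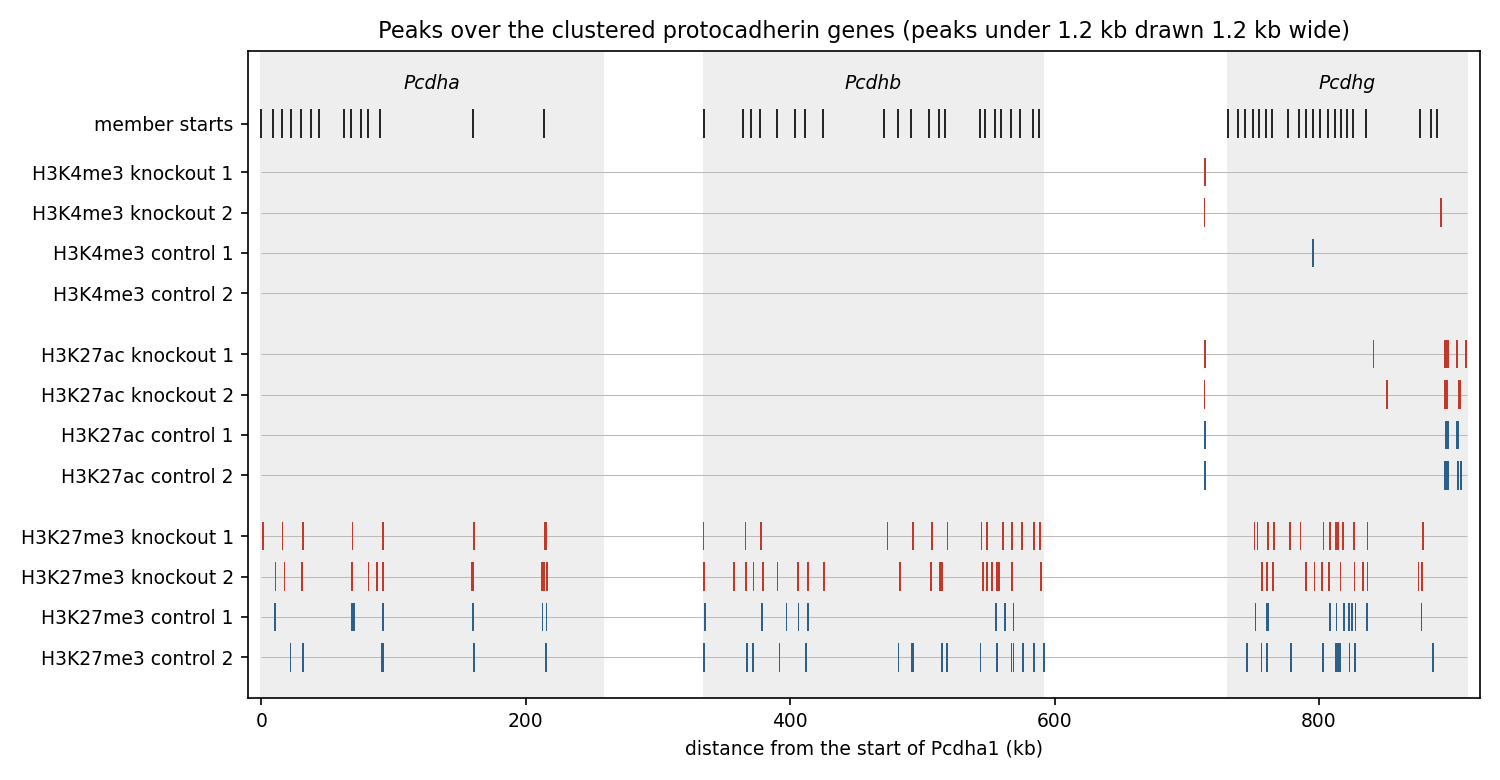
Map of every peak over the 3 clusters and the gaps between them. The horizontal axis is the distance from the start of Pcdha1 in kb, grey bands are the Pcdha, Pcdhb and Pcdhg clusters, black ticks are the 57 member starts, and each lower track is 1 library with knockout tracks in red above control tracks in blue. H3K27me3 peaks sit near member starts, mostly just inside the genes, in all 3 clusters, whereas H3K27ac lies at Taf7, between Pcdhb and Pcdhg, and in the later part of Pcdhg.

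H3K27me3 peaks covered 31.29 and 36.37 kb of the clusters in the knockout lists, against 16.44 and 21.59 kb in the control lists. Both knockout lists were above both control lists. The means were 33.83 ± 3.59 kb in knockout and 19.02 ± 3.64 kb in control cells (SD, n = 2 each), a 1.779-fold difference with an exact two-sided permutation p of 0.333, which is the smallest p that 2 lists against 2 allow. In peak number the means were 39 ± 7.07 in knockout and 28.5 ± 3.54 in control cells (exact permutation p = 0.333). Each list was also cut to its widest peaks, to the length of the shortest H3K27me3 list. Peaks of equal width were taken in order of chromosome name. The cut gave 18.5 peaks in knockout and 28.5 in control cells on average. It took the cluster peaks of the minimum width out of the knockout lists and none out of the control lists. The order of these means thus follows from how equal widths were ranked, and cannot show an effect of list length. The called length in these shortened lists, under the same limit, was 23.8 kb in knockout and 19.02 kb in control cells. That is a difference of 4.787 kb, against 14.82 kb in the full lists. Among peaks wider than the minimum width alone, the means were 18.5 peaks in knockout and 12.5 in control cells.

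The ratio of knockout to control over the clusters was below that of the whole lists. Over the genome the called H3K27me3 length was 10.11 and 10.51 Mb in the knockout lists and 4.467 and 5.13 Mb in the control lists, 2.149-fold. The clusters held 0.3095 and 0.3462% of the called length of the knockout lists, against 0.368 and 0.4209% in the control lists. Both knockout shares were below both control shares (0.3278 ± 0.026% in knockout and 0.3944 ± 0.0374% in control cells, n = 2 each, exact permutation p = 0.333, the smallest possible). On chromosome 18 alone the clusters held 10.62 and 12.37% of the called length in knockout cells, against 12.87 and 14.0% in control cells.

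Set against their own chromosome, the clusters were dense in H3K27me3 per base in both conditions. They are also dense in genes: the members are 11.15% of the chromosome's protein-coding genes. Beside that share, the clusters held 10.62 and 12.37% of its H3K27me3 length in knockout and 12.87 and 14.0% in control lists. In the knockout lists 4.502 and 5.233% of the cluster sequence lay in a peak, against 0.3034 and 0.2968% of the rest of chromosome 18. In the control lists 2.365 and 3.106% of the clusters lay in a peak, against 0.1283 and 0.1528% of the rest. The clusters were higher in 4 of 4 lists, by 3.581 percentage points on average (exact sign-flip test over lists, p = 0.125, the smallest that 4 lists allow). For H3K27ac the clusters exceeded the rest of the chromosome by 0.1721 points, also in 4 of 4 lists (exact sign-flip p = 0.125). For H3K4me3 they were lower by a mean of -0.1262 points and higher in 1 of 4 lists (exact sign-flip p = 0.25).

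Each of the 3 clusters carried H3K27me3. In Pcdhg the knockout lists had 15.02 and 12.26 kb, against 7.074 and 7.261 kb in the control lists (1.903-fold). In Pcdha the knockout lists had 6.01 and 9.743 kb, against 4.349 and 4.3 kb in the control lists (1.821-fold). The Pcdhb values were 10.26 and 14.37 kb in knockout and 5.018 and 10.03 kb in control cells (1.637-fold). In every cluster both knockout lists were above both control lists, though the nearest values in Pcdhb, 10.26 kb in knockout replicate 1 and 10.03 kb in control replicate 2, were close. The exact permutation p was 0.333 for each cluster.

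**Figure D2:**
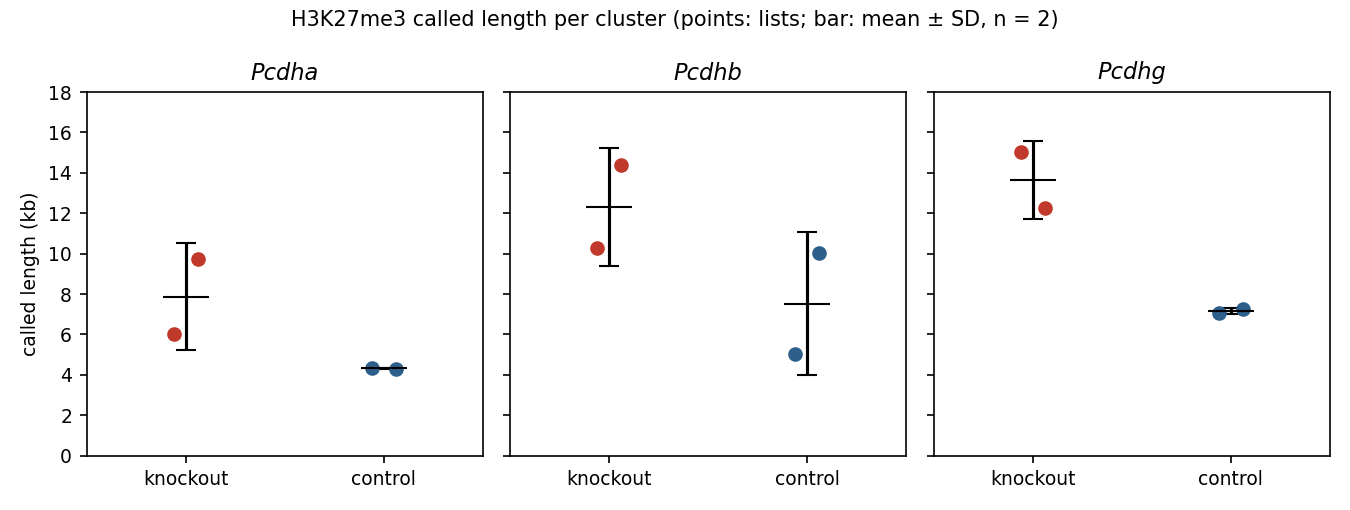
Length called as H3K27me3 in each cluster, in kb, by library, with knockout left of control. Points are libraries and bars the mean ± SD of 2. The 2 knockout points lie above the 2 control points in each cluster, and the control points of Pcdhb are the farthest apart, at 5.018 and 10.03 kb.

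The H3K27me3 peaks were placed just inside the genes, past their starts. A peak centre lay within 3 kb of a member start for 34 of 34 and 43 of 44 knockout peaks, against 24 of 26 and 31 of 31 control peaks. Of these centres 94.12 and 72.09% in the knockout lists and 87.5 and 90.32% in the control lists lay on the inner side of the start. At other protein-coding genes with a known strand the inner share was lower, 62.45 and 61.76% in the knockout lists and 61.98 and 61.87% in the control lists. The median centre was 1226 and 940 bp inside the member in knockout cells, against 1141 and 1291 bp in control cells. At other genes it was 598 and 572.8 bp inside in knockout cells, against 634 and 581 bp in control cells. No peak reached the starts of 2 members.

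**Figure D3:**
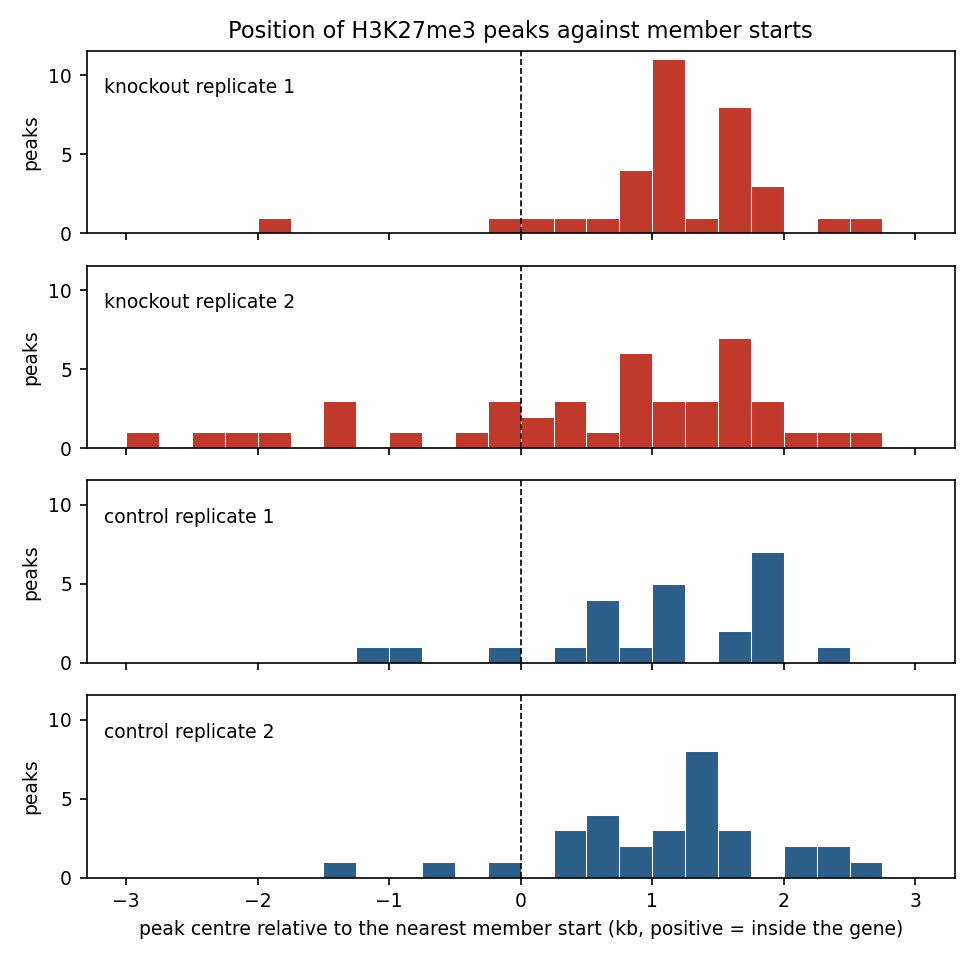
Position of each H3K27me3 peak centre against the nearest member start, in kb, counted in bins for each library, with the 2 knockout libraries above the 2 control libraries. Positive values lie inside the gene. In 4 of 4 libraries most centres lie between the start and 2 kb inside, and knockout replicate 2 has the most centres before the start, 12 of 43.

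The first 3 kb of the 57 members make up 171.0 kb, or 24.6% of the clusters. They held 96.24 and 79.65% of the H3K27me3 length in the knockout lists, against 85.8 and 94.43% in the control lists. For Pcdha and Pcdhg members this is the stretch that begins with the variable exon, and for Pcdhb members with the single coding exon. The far end of the Pcdhg cluster, from the start of Pcdhgc5 to the cluster end (22.3 kb, which holds the constant exons), carried 0 kb of H3K27me3 in all 4 lists. Past the first 3 kb of Pcdhac2 the Pcdha cluster held 0 and 0.165 kb in the knockout lists and 0 kb in both control lists.

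Within 1 kb of their starts 24 and 26 of 57 members had an H3K27me3 peak in the knockout lists, against 14 and 18 in the control lists. That is 42.1 and 45.6% of members in knockout cells, where the background over 17492 other protein-coding genes was 10.4 and 10.7%, and 24.6 and 31.6% in control cells, where it was 5.84 and 6.33%. Members exceeded the other genes in 4 of 4 lists, by 18.7 to 34.9 points and 27.6 on average (exact sign-flip test over lists, p = 0.125, the smallest possible). The members differed between conditions by 9 genes (25 ± 1.41 in knockout and 16 ± 2.83 in control cells, n = 2 each, exact permutation p = 0.333, the smallest possible). At equal list length the means were 14 members in knockout and 16 in control cells. That cut took minimum-width cluster peaks out of the knockout lists alone, so it cannot show an effect of list length. The difference shrank to 12.5 members in knockout and 9.5 in control cells where 50% of a peak had to lie in the window (exact permutation p = 1.0), and to 11 in knockout and 8.5 in control cells with a window of 500 bp (exact permutation p = 0.667). The ratio of knockout to control shares was 1.56 for members and 1.73 for the other genes.

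**Figure D4:**
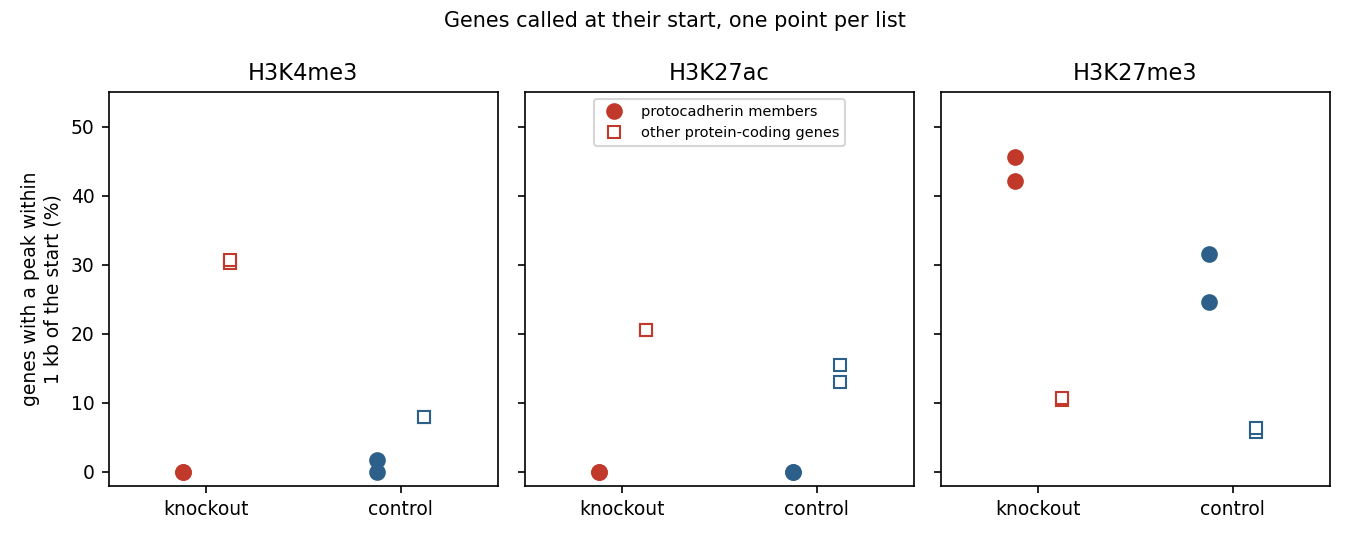
Percent of genes with a peak within 1 kb of the start, for the 57 members (filled circles) and 17492 other protein-coding genes (open squares), with 1 point per library, knockout left of control and a panel for each mark. Members lie above the other genes for H3K27me3, at 42.1 and 45.6% in knockout and 24.6 and 31.6% in control cells, and at or near 0 for the other marks.

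The members called differed from library to library. At the start window 47 of 57 members (82.5%) were called in at least 1 list, where 17.1% of other genes were, but 2 members (3.51%) were called in all 4, where 1.41% of other genes were. Of the members 24 were called in a single list, 13 in 2 lists, 8 in 3 lists and 10 in none. Alternate members gave 22 and 23 of 52 in knockout cells and 11 and 16 of 52 in control cells. C-type members gave 2 and 3 of 5 in knockout cells, against 3 and 2 of 5 in control cells.

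A call in both knockout lists and neither control list was found for 5 members (8.77%), where 2.16% of other genes had one. These were Pcdhb22 (peaks of 786 and 1517 bp), Pcdhga10 (1744 and 501 bp), Pcdhb16 (501 and 1339 bp), Pcdha3 (777 and 501 bp) and Pcdha5 (501 and 501 bp), where 501 bp is the smallest width any list holds. The reverse was found for 1 member (1.75%), Pcdhb17 with peaks of 1047 and 648 bp in the control lists, where 0.246% of other genes were control-only. Both counts depended on the window: within 500 bp of the start they were 0 and 0. Leaving out 1 list at a time loosens the rule and can only keep or raise these counts. It left between 6 and 14 members knockout-only and between 2 and 8 control-only. The highest counts came without knockout replicate 1 and without control replicate 1. With the window moved to the first 3 kb of each gene, a choice made after the peak positions were seen, Pcdhga10, Pcdha5 and Pcdhb17 left these classes, since each then met a peak of the other condition. Pcdhb22, Pcdhb16 and Pcdha3 stayed knockout-only, joined by Pcdhb12 (658 and 501 bp) and Pcdhga5 (501 and 501 bp), again 5 members where 2.04% of other genes were knockout-only. The 1 control-only member in that window was Pcdhgb7, with peaks of 907 and 645 bp, where 0.263% of other genes were control-only.

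In the first 3 kb 33 and 34 of 57 members were called in the knockout lists, 57.9 and 59.6%, where other genes stood at 11.7 and 12%. In the control lists 21 and 27 members were called, 36.8 and 47.4%, where other genes stood at 6.98 and 7.77%. The difference from other genes was 40.8 points, in 4 of 4 lists (exact sign-flip p = 0.125). More knockout than control lists called 21 members, where 10.3% of other genes were so called. More control than knockout lists called 6, where 3.12% of other genes were, and 22 members were called by equal numbers of each. In at least 1 list 49 of 57 members (86.0%) were called, where 18.3% of other genes were. Every one of the 22 Pcdhb members was among the 49. The 8 members never called were Pcdha4, Pcdha6, Pcdha7, Pcdha8, Pcdha10, Pcdhga1, Pcdhga2 and Pcdhgc5. Of these, Pcdha6, Pcdha7 and Pcdha8 follow one another in the Pcdha cluster, and the remaining Pcdhg genes are the first 2 and the last of their cluster.

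**Figure D5:**
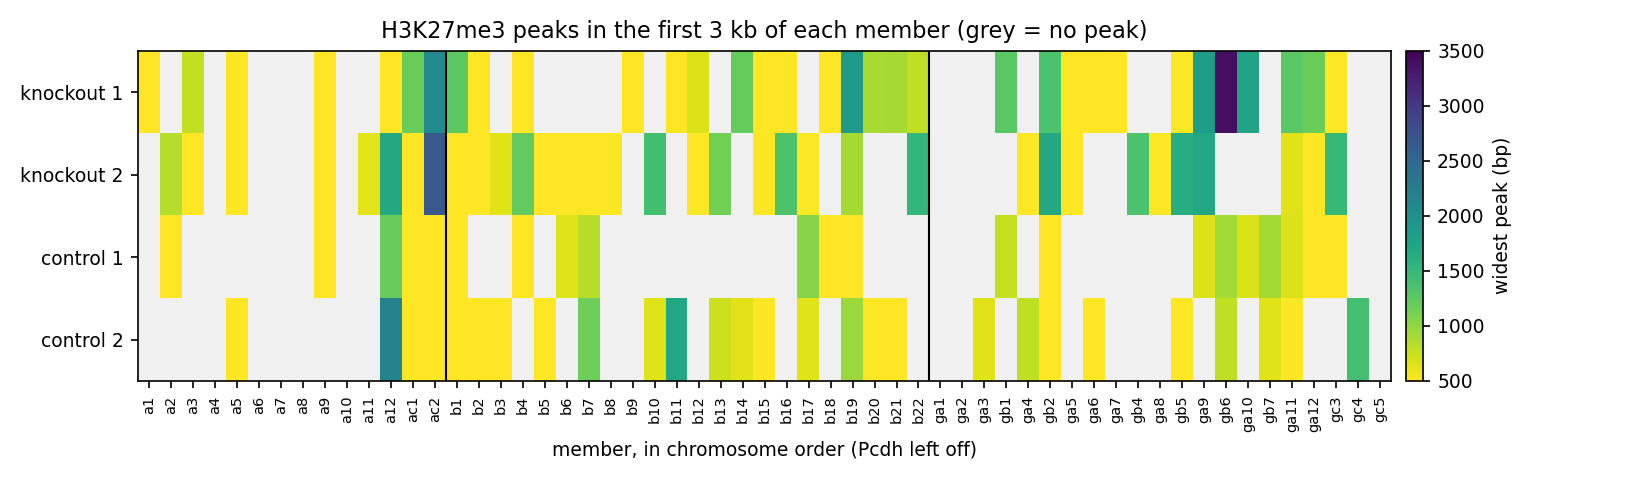
Width of the widest H3K27me3 peak in the first 3 kb of each member, in bp on the colour scale, with members in chromosome order along the horizontal axis and the 2 knockout libraries above the 2 control libraries. Grey cells have no peak. The members coloured in all 4 libraries are Pcdha12, Pcdhac1, Pcdhac2, Pcdhb1, Pcdhb19, Pcdhgb2 and Pcdhga11, and knockout libraries have more coloured cells (33 and 34) than control libraries (21 and 27).

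The 7 members called in the first 3 kb in all 4 lists (12.3%, where 2.13% of other genes were) came from all 3 clusters. Among the C-type genes, Pcdhac2 had peaks of 2052 and 2661 bp in the knockout lists, against 501 and 501 bp in the control lists. Its neighbour Pcdhac1 had 1177 and 501 bp in knockout cells and 501 and 501 bp in control cells. Both knockout peaks of Pcdhac2 were thus wider than both control peaks, while those of Pcdhac1 overlapped the control values. Within 1 kb of the start Pcdhac2 had the same knockout widths, against 649 and 0 bp in control cells.

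Among the alternate Pcdha genes, Pcdha12, the last before the C-type genes, had peaks of 501 and 1675 bp in knockout cells, against 1195 and 2154 bp in control cells. The widest peak was in control replicate 2 and the narrowest in knockout replicate 1, and the groups overlapped. Within 1 kb of its start the widths were 0 and 1675 bp in knockout cells and 0 and 2154 bp in control cells. Pcdha9 was called in 3 lists, at 501 and 501 bp in knockout cells and 501 and 0 bp in control cells.

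In the Pcdhb cluster, Pcdhb19 had peaks of 1883 and 908 bp in the knockout lists, against 501 and 946 bp in the control lists. Its control widths within 1 kb of the start were 0 and 501 bp. Pcdhb1, the first of the cluster, had 1252 and 501 bp in knockout cells and 501 and 501 bp in control cells. Its region, chr18:37264180-37265745, straddled the start. Pcdhb7 was wider in control cells, at 0 and 501 bp in knockout and 822 and 1158 bp in control lists, as was Pcdhb17, at 0 and 501 bp in knockout and 1047 and 648 bp in control lists. Pcdhb11 was called in 1 library of each condition, at 501 and 0 bp in knockout cells and 0 and 1715 bp in control cells.

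In the Pcdhg cluster the widest H3K27me3 peak of any list over the clusters, 3383 bp, lay at Pcdhgb6 in knockout replicate 1. That gene had 3383 and 0 bp in knockout cells, against 920 and 783 bp in control cells, so the groups overlapped. Its neighbour Pcdhga9 had 1820 and 1713 bp in knockout cells, against 655 and 0 bp in control cells, with both knockout values above both control values. Pcdhgb2 had 1352 and 1693 bp in knockout cells and 501 and 501 bp in control cells, also without overlap. Within 1 kb of the start, however, its knockout widths were 0 and 1693 bp. For Pcdhac2, Pcdhga9 and Pcdhgb2 alike, the share of all genes with widths so separated was not worked out. The whole knockout lists were longer as well, 2.149-fold in called H3K27me3 length. Pcdhga11 had 1273 and 630 bp in knockout cells, against 654 and 501 bp in control cells. Within 1 kb of the start its control widths were 501 and 0 bp. The C-type gene Pcdhgc3 had 501 and 1487 bp in knockout cells and 501 and 0 bp in control cells. Pcdhgc4 was called in control replicate 2 alone, at 1398 bp. Between Pcdhga11 and Pcdhga12 lies Pcdhgb8, annotated as a transcribed pseudogene and so not counted among the 57, with 0 and 754 bp in the knockout lists and 0 and 0 bp in the control lists.

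Merging the 4 lists gave 79 H3K27me3 regions over the clusters. Of these 7 were called in 4 lists, 6 in 3, 17 in 2 and 49 (62.03%) in a single list, against 75.98% in a single list among the 25113 regions of the whole series. Between the knockout replicates 13 of 34 and 14 of 44 cluster peaks overlapped (38.24 and 31.82%), where 30.63 and 30.28% of all peaks did. Between the control replicates 7 of 26 and 7 of 31 overlapped (26.92 and 22.58%), where 23.23 and 20.06% of all peaks did. Most calls were thus not repeated by the other replicate, in the clusters and in the lists as a whole. The widest region called in all 4 lists was chr18:37142008-37146843 at Pcdhac2, with 2052 and 3602 bp called in knockout cells and 1150 and 501 bp in control cells. The next was chr18:37742311-37746441 at Pcdhgb6, with 3383 and 501 bp in knockout and 920 and 1785 bp in control cells.

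Over whole spans 47 and 49 members met an H3K27me3 peak in the knockout lists, against 40 and 48 in the control lists, where 17.6 and 17.8% of all protein-coding genes did in knockout and 11.5 and 12.9% in control cells. At equal list length the means were 39.5 members in knockout and 44 in control cells, with minimum-width cluster peaks cut from the knockout lists alone. These counts follow largely from nesting. All 14 Pcdha members were called in every list, since their spans all include the region at Pcdhac2, and 19 and 19 of 21 Pcdhg members were in knockout lists, against 19 and 20 in control lists. A single peak lay in up to 19 spans in each knockout list, against 19 and 20 in the control lists. The Pcdhb spans do not nest, and there the counts were 14 and 16 of 22 in knockout cells and 7 and 14 of 22 in control cells. Of the cluster peaks 15 and 19 lay in 1 span in knockout lists, against 7 and 15 in control lists, and 19 and 24 lay in several in knockout lists, against 18 and 16 in control lists.

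H3K27ac had no peak over Pcdha or Pcdhb in any of the 4 lists and was called in Pcdhg. It covered 5.134 and 5.164 kb of Pcdhg in the knockout lists, against 4.388 and 4.967 kb in the control lists. The means were 5.149 ± 0.0212 kb in knockout and 4.678 ± 0.409 kb in control cells (SD, n = 2 each, exact permutation p = 0.333, the smallest possible). Counting only peaks wider than the minimum width turned this order round, to 4.147 kb in knockout and 4.427 kb in control cells.

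Most of the acetylation lay in 2 regions past the start of Pcdhgc5, the last variable exon. The first, chr18:37824840-37828512, carried 3631 and 2597 bp in knockout cells and 2739 and 3389 bp in control cells, and overlaps the long non-coding RNA gene Gm29994. The second, chr18:37833923-37837778, carried 501 and 2066 bp in knockout cells and 1649 and 1578 bp in control cells. The groups overlapped in both regions. Each region lies in the spans of all 21 Pcdhg members, so all 21 were called over their span in every list, where 12.7% of all protein-coding genes were called in all 4. None of the 57 had an H3K27ac peak within 1 kb of its start in any list, where the other genes stood at 20.6 and 20.6% in knockout and 15.5 and 13.0% in control lists. From the Pcdhgc5 start to the cluster end lay 90.24 and 90.3% of the Pcdhg acetylated length in knockout cells, against 100 and 100% in control cells. The knockout lists also held single peaks of the minimum width, at chr18:37770905-37771405 and chr18:37840991-37841491 in replicate 1 and at chr18:37781315-37781815 in replicate 2.

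H3K4me3 gave a single cluster peak in 1 list of each condition. Knockout replicate 2 had a peak of 501 bp at chr18:37821754-37822254, with its middle 2458 bp inside Pcdhgc5. Control replicate 1 had a peak of 501 bp at chr18:37725162-37725662, with its middle at -294 bp from the start of Pcdhga8. Members called at their start were thus 0 and 0 in knockout lists, where 30.3 and 30.7% of other genes were called, and 1 and 0 in control lists, where 7.99 and 7.98% were. Over their spans 0 and 21 members were called in knockout cells and 10 and 0 in control cells, each through its 1 shared peak, where 33.4 and 33.9% of all protein-coding genes were called in knockout and 10.0 and 9.36% in control cells. Knockout-only H3K4me3 calls, which 13.3% of other genes had, were found at 0 of 57 members. Members lay below other genes by a mean of -18.8 points for H3K4me3 and -17.4 points for H3K27ac, in 4 of 4 lists each (exact sign-flip p = 0.125 for both).

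Overlap between the marks could hardly be seen in the clusters, which held at most 4 H3K27ac peaks and 1 H3K4me3 peak in a list. Of 34 and 44 knockout peaks and 26 and 31 control peaks, 0 overlapped an H3K27ac peak of the same condition, where 2.617 and 2.647% of all H3K27me3 peaks did in knockout and 2.028 and 1.888% in control lists. Likewise 0 overlapped an H3K4me3 peak, where 5.058 and 5.434% did in knockout and 0.8238 and 0.8469% in control lists.

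Other genes lie between and around the clusters. Taf7, which encodes a subunit of the general transcription factor TFIID, lies between Pcdhb and Pcdhg at chr18:37640491-37644204. It had H3K4me3 peaks of 841 and 1071 bp in knockout cells and no peak in control cells. Its H3K27ac peaks were 776 and 1150 bp in knockout cells, against 772 and 1562 bp in control cells, and it had no H3K27me3 peak. Slc25a2, a mitochondrial ornithine carrier gene beside it at chr18:37637378-37638723, had no peak of any mark. Over the list of 18 genes in and around the clusters, 3 were knockout-only for H3K4me3 at their ends, where 13.5% of all protein-coding genes were. Besides Taf7 these were Slc35a4 (501 and 942 bp) and Apbb3 (1186 and 942 bp), neighbours that share the 942 bp peak. Of the 18, 15 had no H3K27me3 peak at an end in any list, and 3 (Cd14, Fchsd1 and Arap3) had one in some, where 20.3% of all protein-coding genes did.

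The 12 protocadherin genes outside the clusters, which encode related adhesion proteins from genes of their own, carried H3K27me3 at their ends as well. Of the 12, 3 were knockout-only, where 2.42% of all protein-coding genes were. Another 7 were called in some other mix of lists and 2 in none. Of all protein-coding genes 20.3% were called in 1 list or more. The knockout-only genes were Pcdh7 (777 and 1848 bp), Pcdh15 (501 and 1983 bp) and Pcdh17 (3630 and 1515 bp). Some peaks were wider than any in the clusters: Pcdh1 had 8760 and 4057 bp in knockout cells, against 3210 and 0 bp in control cells. Pcdh8 had 7585 and 0 bp in knockout cells, against 631 and 0 bp in control cells. H3K27ac was called at 0 of the 12 in any list, where 34.5% of all protein-coding genes had a call. H3K4me3 was knockout-only at 1 of the 12, Pcdh19 (1214 and 1194 bp), where 13.5% of all protein-coding genes were.

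Genes for proteins known to act on the clusters were looked at in the same way. Of 18 such genes, H3K27me3 was called at 1, where 20.3% of all protein-coding genes had a call in 1 list or more. It was Dnmt3b, which encodes a DNA methyltransferase, at 501 bp in knockout replicate 1. For 7 of the 18 an H3K27ac peak lay at an end in 4 of 4 lists, where 6.91% of all protein-coding genes had one. H3K4me3 was called in all 4 lists at 4 of the 18, where 2.89% of all protein-coding genes were. These were Rest, a repressor of neuronal genes, the cohesin genes Smc3 and Stag2, and Ctcf, with peaks of 2519 and 2285 bp in knockout and 651 and 636 bp in control cells. The H3K4me3 knockout-only genes were Smc1a (636 and 1209 bp), Smchd1 (1965 and 1822 bp) and Wiz (1065 and 979 bp), 3 of 18, where 13.5% of all protein-coding genes were, a share too near to read as a result about these genes. Smc1a is a cohesin gene, and Smchd1 encodes a chromosomal protein known to repress the clusters in mice.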

How the data were processed

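Peak lists of 3 histone marks were analysed, with 2 knockout and 2 control libraries per mark, grouped by title. The 4 input libraries and the Mettl3 knockout named in the design were not analysed here. The submitters' processing notes name build mm10 and the tools Trimmomatic 0.38, Bowtie2 2.4.1, CASAVA, HOMER and SAMtools. Per the labels' protocols, chromatin and antibody for a spike-in were added. Not given in the sources used here are the peak caller, its settings, the use of inputs and spike-in reads, and the treatment of reads that match several similar protocadherin genes.

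The lists were deposited 1 per library as BED tables. The deposited score is 1 for every peak, so positions and widths are the only measurements, and depth is unknown. Coordinates are 1-based. Gene spans came from the RefSeq table of GRCm38.p6. It gives no strand, so the unshared, lower-coordinate end was taken as a member's start. For Pcdhb genes this rests on the known direction of the cluster. The strand of 17492 other genes came from a promoter table that holds no chromosome 18 gene, and promoter sequences of members were not used here. List genes were called within 1 kb of either end, since they are compared with all 21900 genes.

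An overlap needed 1 bp. Groups were compared by exact two-sided permutation over the 6 assignments of 4 lists (smallest p 0.333), and members with other genes or the clusters with the chromosome by exact sign-flip over 4 lists (smallest p 0.125). No p was adjusted. Knockout-only means both knockout lists and neither control list. At most 12 members per mark, the widest on average at their starts, and members of the classes described were named with their widths, together with listed genes in list order, up to 4 per class, and Taf7 and Slc25a2. Pcdha9, Pcdhb7, Pcdhgc3 and Pcdhgc4 were named after their values were seen. Members and lists were chosen with earlier results of these data known. Alternatives were the overlap share, minimum width, list length, window, block and leaving out each list. The counting was tested on simulated data: of 20 planted members among 57, 20 were recovered with 0 extra. The planted peaks had the minimum width and were centred on member starts in an emptied cluster region. The test thus checks the counting at starts, and not nested spans or peaks farther inside the genes. Python 3.11.15, pandas 2.3.3, numpy 2.4.6 and matplotlib 3.10.9 were used.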

Additional observations from a re-analysis of the deposited data

How the results depend on the processing

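Of 189 recomputed values, 149 kept the direction of their difference, whatever its size, or stayed within 1.5 times the reported count. Some of the 149 could not change. The replicate-block means equal the main differences by construction, and the H3K27ac counts of members at their start were 0 in every list. With every list cut to the length of the shortest of its mark, peaks of equal width were taken in order of chromosome name. Knockout minus control then became -10 H3K27me3 peaks, -2.0 members called at their start and -4.5 over their span, with 1 knockout-only member. The cut took H3K27me3 cluster peaks of the minimum width out of the knockout lists and none out of the control lists. These changes of order therefore cannot be read as an effect of list length. The H3K27me3 called length kept its direction there, with a difference of 4.787 kb in place of 14.82 kb. For H3K4me3 knockout minus control became -0.5 peaks, -0.2505 kb and -5.0 members over their span. There the control cluster peak, of the minimum width, was kept by that ranking. With peaks wider than the minimum width alone, the differences were -0.5 peaks and -0.28 kb for H3K27ac, and 0 for H3K4me3 in share and in members over their span and at their start, with 3 knockout-only H3K27me3 members. Requiring 50% of the peak inside left 0 knockout-only members and a difference of 3.0 members called at their start, in place of 9.0. A window of 500 bp left 0 knockout-only and 0 control-only members and a difference of 2.5, and one of 2500 bp left 0 control-only members and an H3K4me3 difference of 0 members. The added window from the start to 3 kb inside, chosen after seeing the data, gave 0.5 H3K4me3 members.

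Leaving out 1 list at a time gave the following ranges of knockout minus control. For H3K27me3 they were 5.5 to 15.5 peaks, 12.24 to 17.39 kb, -0.09304 to -0.04019 percentage points of list length, 7 to 11 members at their start and 0 to 8 over their span, the lower end without control replicate 1. Knockout-only members numbered 6 to 14, the highest without knockout replicate 1, and control-only members 2 to 8, the highest without control replicate 1. For H3K27ac they were 0.5 to 1.5 peaks, 0.182 to 0.761 kb and -0.005128 to 0.003472 points, positive without control replicate 2. For H3K4me3 they were -0.5 to 0.5 peaks, -0.2505 to 0.2505 kb, -0.02499 to 0.003175 points (positive without control replicate 1), -5 to 16 members over their span (negative without knockout replicate 2), -1.0 to 0 at their start and 0 to 1 control-only.

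The replicate numbers showed no pairing of the samples in the peak lists. Same-numbered libraries deviated from their group means with correlations of -0.000211 for H3K4me3, -0.0157 for H3K27ac and -0.0087 for H3K27me3. Such correlations over called peaks cannot exclude that same-numbered libraries shared a culture or batch. With the replicate block the mean differences were the same, 14.82 kb and 9.0 members for H3K27me3, and the smallest exact sign-flip p over 2 pairs is 0.5. The causes of these changes were not tested. With 2 lists a group, no comparison here could pass a threshold of 0.05. H3K27me3 peaks of the minimum width overlapped the other replicate in 15.47 and 15.01% of cases in knockout and 14.13 and 11.02% in control lists, less often than all peaks (30.63 and 30.28% in knockout and 23.23 and 20.06% in control lists).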
